A study of Mus musculus with 30 samples.

Results

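The genes described here are 8 genes of retinoid metabolism in mouse liver: *Rdh16*, *Rdh16f2*, *Hsd17b6*, *Rdh11*, *Lrat*, *Aldh1a1*, *Aldh1a7*, and *Cyp26a1*. They were selected on earlier results of these same counts, among them the values of *Rdh16f2* in libraries labelled WT and KO. Their rows were taken by symbol from the 54429 gene rows of a time course and by Ensembl identifier from the 55471 gene rows of a genotype experiment, and all 8 were found in both tables and passed the filter on low counts in every fit. The time course held 18 poly(A) RNA-seq libraries from livers of male wild-type C57BL/6J mice, 1 library for each of zeitgeber time (ZT, hours after lights on) 1, 5, 9, 13, 17, and 21 at 2, 6, and 12 months of age. The genotype experiment held 12 libraries, 6 labelled WT and 6 labelled KO, with 1 library for each genotype at 2, 6, and 12 months and at a time labelled H or L, when Egr-1 protein was highest or lowest. KO mice carried floxed alleles of *Egr-1*, a transcription factor gene, and Alb-Cre, whose albumin promoter acts in hepatocytes. WT mice were littermates, and all mice were male and ate normal chow in 12 h light and 12 h dark. Per the study's methods, the KO lines came from another strain and had been backcrossed to C57BL/6J over at least 6 generations. Following the methods of the study, H and L were ZT13 and ZT17 at 2 months, ZT9 and ZT21 at 6 months, and ZT5 and ZT21 at 12 months, so in this cohort age and collection time cannot be told apart.

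The liver takes up vitamin A as retinyl esters and stores it, mostly in stellate cells, after *Lrat* (lecithin retinol acyltransferase) has esterified retinol. Short-chain dehydrogenases, to which *Rdh16*, *Rdh16f2*, *Hsd17b6*, and *Rdh11* belong, interconvert retinol and retinal, and *Hsd17b6* and its relatives also act on steroids. *Aldh1a1* oxidizes retinal to retinoic acid, the ligand of the nuclear retinoic acid receptors, and *Cyp26a1* breaks retinoic acid down and is a known target gene of those receptors.

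On GRCm38, *Rdh16* (ENSMUSG00000069456, chr10:127801152-127846565, plus strand), *Rdh16f2* (ENSMUSG00000074639, chr10:127866474-127877317, plus strand), and *Hsd17b6* (ENSMUSG00000025396, chr10:127990936-128007611, minus strand) lie in 1 cluster of short-chain dehydrogenase genes. *Aldh1a1* (ENSMUSG00000053279, chr19:20492715-20643465, plus strand) and *Aldh1a7* (ENSMUSG00000024747, chr19:20692953-20727562, minus strand) are neighbours, and *Cyp26a1* (ENSMUSG00000024987) lies at chr19:37697798-37701536 on the plus strand. *Rdh11* (ENSMUSG00000066441) lies at chr12:79174337-79192293 and *Lrat* (ENSMUSG00000028003) at chr3:82892579-82903973, both on the minus strand. Of the 75-base stretches of their annotated transcripts, 9.59% in *Rdh16* and 10.4% in *Hsd17b6* occurred in another gene as well, against 1.26% in *Rdh16f2*, 2.51% in *Aldh1a7*, 1.01% in *Aldh1a1*, and 0 in *Rdh11*, *Lrat*, and *Cyp26a1*. The sharing genes were *Rdh18-ps*, which overlaps *Rdh16*, and *Rdh9* for *Rdh16*, *Rdh1* and *Rdh16f1* for *Hsd17b6*, and *Rdh19* and *Rdh1* for *Rdh16f2*, so counts of these genes are uncertain to that extent. Whether the counting used strand is not given in the sources used here.

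RefSeq promoter windows (GRCm38.p6) of 250 bases before a transcription start were read for 11 starts of the 8 genes. Shown 5′ to 3′ on the gene's strand are the windows of *Cyp26a1* and *Rdh11*, which held a motif searched, that of *Rdh16f2*, which differed most between the libraries labelled WT and KO, and those of *Aldh1a1* and *Aldh1a7*, which share promoter sequence. In *Cyp26a1* (chr19:37697558-37697807, plus strand) the capitals mark a direct repeat from position -32, of the type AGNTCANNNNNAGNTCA on either strand that retinoic acid receptors are known to bind. In the window of the second listed start of *Rdh11* (chr12:79190962-79191211, minus strand) they mark 2 E-boxes (CACGTG), the motif of the clock factors. In *Rdh16f2* (chr10:127866226-127866475, plus strand) they mark the longest run, 10 bases, that it shares with the window of *Rdh16*. In *Aldh1a1*, second listed start (chr19:20601718-20601967, plus strand), and *Aldh1a7* (chr19:20727557-20727806, minus strand) they mark a run of 65 bases that is the same in both and starts at position -94 in both.
Cyp26a1: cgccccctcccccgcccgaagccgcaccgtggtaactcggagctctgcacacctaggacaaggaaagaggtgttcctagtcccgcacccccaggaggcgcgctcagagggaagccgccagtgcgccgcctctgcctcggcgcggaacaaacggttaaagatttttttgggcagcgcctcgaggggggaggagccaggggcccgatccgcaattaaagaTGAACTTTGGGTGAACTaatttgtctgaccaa
Rdh11: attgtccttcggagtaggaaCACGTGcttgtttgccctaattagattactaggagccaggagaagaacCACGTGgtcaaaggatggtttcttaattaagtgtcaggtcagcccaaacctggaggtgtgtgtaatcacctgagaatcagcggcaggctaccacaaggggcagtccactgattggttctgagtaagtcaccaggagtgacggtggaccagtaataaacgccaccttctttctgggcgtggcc
Rdh16f2: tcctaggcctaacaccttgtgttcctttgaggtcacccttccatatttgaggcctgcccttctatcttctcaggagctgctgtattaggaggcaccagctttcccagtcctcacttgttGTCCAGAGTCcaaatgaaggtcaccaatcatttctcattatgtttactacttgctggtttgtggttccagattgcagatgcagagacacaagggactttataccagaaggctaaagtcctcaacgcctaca
Aldh1a1: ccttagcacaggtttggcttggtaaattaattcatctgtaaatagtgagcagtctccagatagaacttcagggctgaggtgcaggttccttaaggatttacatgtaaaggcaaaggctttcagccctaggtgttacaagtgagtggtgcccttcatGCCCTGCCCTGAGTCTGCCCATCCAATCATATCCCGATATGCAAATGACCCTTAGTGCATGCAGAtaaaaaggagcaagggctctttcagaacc
Aldh1a7: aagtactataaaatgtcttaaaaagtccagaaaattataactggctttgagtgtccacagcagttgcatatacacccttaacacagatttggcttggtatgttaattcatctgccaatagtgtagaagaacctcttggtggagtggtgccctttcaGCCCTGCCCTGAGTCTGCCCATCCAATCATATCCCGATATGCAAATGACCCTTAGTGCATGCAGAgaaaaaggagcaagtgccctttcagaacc

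The direct repeat was in 65 of 32851 windows of this length (0.198%) and in 1 of the 11 windows here, that of *Cyp26a1*. An E-box was in 1978 windows (6.02%) and, among the 11, only in that of *Rdh11*. The EGR motif GCGNGGGCG, searched on both strands, was in 1543 windows (4.70%) and in 0 of the 11, which says only that these letters are not in these windows.

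Libraries held 13375377 to 16557378 counted reads in the time course and 13747706 to 21748956 in the genotype experiment. The 6 hepatocyte markers were detected in every group. *Egr1* was lower in the library labelled KO in 3 of 6 pairs, at 66.4 against 5.70 CPM (reads relative to the total of the library) in the 6-month H pair, 24.4 against 5.05 in the 6-month L pair, and 52.9 against 1.67 in the 12-month L pair. It was not clearly different in the 2-month H pair, at 2.50 (WT) and 1.94 (KO), or in the 12-month H pair, at 5.88 and 6.66. In the 2-month L pair it was higher in the library labelled KO, at 1.32 (WT) and 7.75 (KO). The libraries are therefore called here by their labels. All 6 libraries of 6-month mice in the time course held 5246 to 22661 CPM of *Saa1*, a liver acute-phase gene chosen after its values were seen, against 80.3 to 330 at 2 months and 24.9 to 1541 at 12 months, where the 12-month ZT5 library was the highest. The CPM of *Saa1* and all CPM that follow were scaled by TMM (trimmed mean of M-values) factors.

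Set per kilobase of all annotated exons (FPKM), *Aldh1a1* had the highest median level over the 18 time-course libraries at 259, followed by *Aldh1a7* at 120, *Rdh16f2* at 78.4, and *Hsd17b6* at 70.4. *Cyp26a1* at 16.5, *Rdh11* at 12.0, *Rdh16* at 8.25, and *Lrat* at 5.53 were lower. The ranges over libraries overlapped between each gene and the next in this order, except between *Hsd17b6* (32.3 to 135) and *Cyp26a1* (4.89 to 30.9). The order depends on the annotated length, which was 6217 bases for *Rdh16* and 1265 for *Rdh16f2*. Their medians before division by length were 51.3 and 99.2 CPM.

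In the time course, 4 of the 8 genes were higher at 12 than at 2 months at an adjusted p under 0.05 and 0 were lower: *Rdh16*, *Rdh16f2*, *Rdh11*, and *Cyp26a1*. Over all genes tested, 14.0% passed in either direction. The test was the quasi-likelihood F-test of edgeR, blocked on ZT and with Benjamini-Hochberg adjustment over all genes, with the 6 time points of an age standing in for replicates, so that p measures the spread between libraries after removal of a common daily course. The median log2 fold change of the 8 genes was 0.35, against 0.00079 over all genes tested. Because the 8 genes were selected on earlier results of these counts, setting them as a group against all genes, here and below, is a description. The calls and p-values of single genes come from the same counts and do not allow for that choice.

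**Figure D1:**
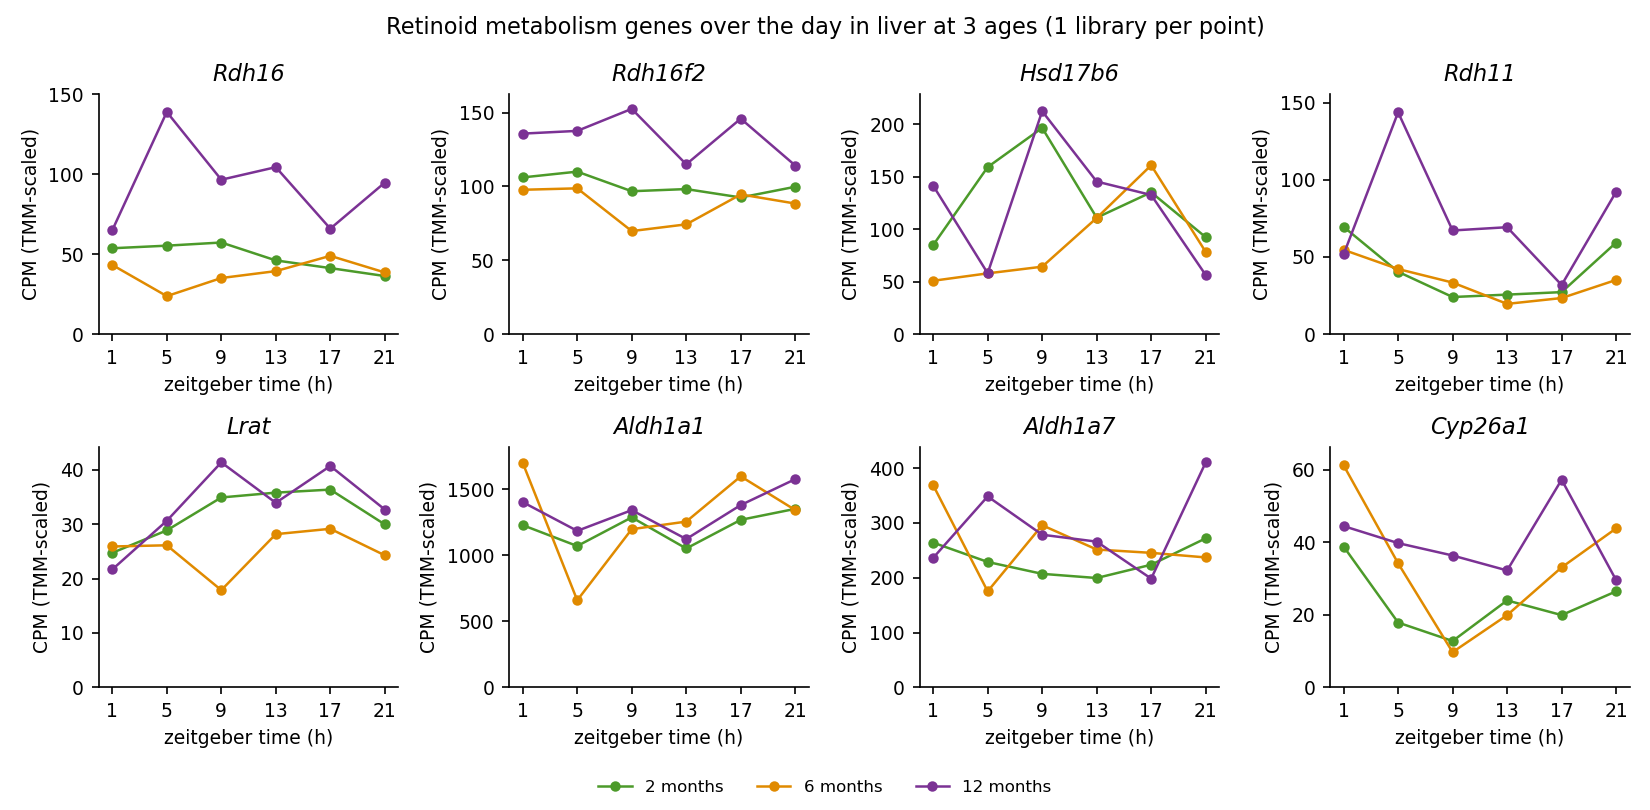
CPM (vertical axis, TMM-scaled) of each gene against ZT in hours for the 18 time-course libraries, 1 point per library, with 1 line for each age. The 12-month line of *Rdh16* and of *Rdh16f2* lies above the lines of both other ages at all 6 times, while the lines of *Aldh1a1* and *Lrat* cross.

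*Rdh16*, a retinol dehydrogenase of liver microsomes, showed the largest difference. It stood at 53.7, 55.3, 57.2, 46.1, 41.2, and 36.3 CPM at ZT1 to ZT21 in 2-month livers, at 43.2, 23.7, 35.0, 39.4, 48.9, and 38.5 CPM at 6 months, and at 64.9, 139, 96.5, 104, 65.9, and 94.7 CPM at 12 months. The lowest 12-month library was thus above the highest library of both younger ages. The mean rose from 48.3 ± 8.44 CPM (SD, n = 6) at 2 months to 94.2 ± 27.4 at 12 months, a log2 fold change of 0.94 ± 0.13 (SE) with an edgeR adjusted p of 0.000498, and the difference was in the same direction at 6 of 6 times. Against 6 months it was 1.29 ± 0.22 (adjusted p = 0.00528), a comparison that shares the 12-month libraries with the first. The highest library, at ZT5, was the 12-month library with the most *Saa1*, whose part in the result was not tested. Without ZT5 the log2 fold change between 12 and 2 months was 0.86.

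*Rdh16f2*, a gene of the same family and cluster, showed a smaller change with less spread. The lowest, median, and highest libraries held 92.5, 99.0, and 110 CPM at 2 months, 69.7, 91.5, and 98.7 at 6 months, and 114, 137, and 152 at 12 months. The 12-month libraries did not overlap those of either younger age. Its log2 fold change was 0.41 ± 0.09 from 2 to 12 months (edgeR adjusted p = 0.0120) and 0.62 ± 0.11 from 6 to 12 months (adjusted p = 0.00657), with the same direction at 6 of 6 times in both. *Rdh16* and *Rdh16f2* were the 2 genes of the 8 whose libraries did not overlap between ages. Such a gap was seen in 4.02% of all genes between 12 and 2 months and in 4.22% between 12 and 6 months. Over the 18 libraries the Spearman correlation of *Rdh16* with *Rdh16f2* was 0.78, given as a description, since the libraries share ages and times.

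*Hsd17b6*, the third dehydrogenase gene of the cluster, did not pass the test between any ages of the time course. It stood at 84.9 to 197 CPM (median 123) at 2 months, 50.9 to 161 (median 71.3) at 6 months, and 56.4 to 213 (median 137) at 12 months. The groups overlapped, and the log2 difference between 12 and 2 months was -0.14 ± 0.22 (edgeR adjusted p = 0.727), with 3 times higher and 3 lower.

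*Rdh11*, which reduces retinal to retinol, was at 69.5, 40.4, 24.03, 25.6, 27.2, and 59.3 CPM from ZT1 to ZT21 at 2 months, at 54.6, 42.2, 33.4, 19.6, 23.4, and 35.1 CPM at 6 months, and at 51.6, 144, 67.2, 69.3, 31.8, and 92.2 CPM at 12 months. At the younger ages the libraries of ZT1 were the highest, and at 12 months that of ZT5 was. The 12-month libraries exceeded those of 2 months at 5 of 6 times and overlapped them. The log2 fold change from 2 to 12 months was 0.87 ± 0.24 with an edgeR adjusted p of 0.0288. This call was lost without ZT5 (adjusted p = 0.0855), without ZT9 (0.0940), without ZT13 (0.0906), without the ZT block (0.129), and in DESeq2 (0.0750), and the largest adjusted p over its 11 alternatives was 0.129. From 6 to 12 months it was 1.07 ± 0.22 (edgeR adjusted p = 0.0127), and the largest adjusted p over the alternatives was 0.0497.

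*Cyp26a1*, the retinoic acid hydroxylase with the direct repeat shown above, was at 38.8, 17.9, 12.8, 23.96, 19.9, and 26.5 CPM from ZT1 to ZT21 at 2 months, at 61.2, 34.2, 9.70, 19.9, 33.1, and 43.8 CPM at 6 months, and at 44.5, 39.8, 36.3, 32.2, 57.2, and 29.6 CPM at 12 months. ZT9 was the lowest time at both younger ages and not at 12 months, but a change of daily course did not pass the test given further on. The level rose from 2 to 12 months by a log2 fold change of 0.82 ± 0.18 (edgeR adjusted p = 0.0111), in the same direction at 6 of 6 times, while the ranges of the groups overlapped. From 2 to 6 months the log2 difference was 0.41 ± 0.17 (adjusted p = 0.156).

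The remaining 3 genes did not pass between any ages. *Lrat*, the retinol esterifying enzyme, was at 24.8 to 36.4 CPM at 2 months (median 32.5), 17.9 to 29.2 at 6 months (median 26.0), and 21.7 to 41.4 at 12 months (median 33.3). Its log2 difference between 12 and 2 months was 0.07 ± 0.08 (edgeR adjusted p = 0.636), while the summed level of 9 stellate cell markers was 512 to 680 CPM at 12 months against 400 to 480 at 2 months. In bulk liver, fewer cells of a type and less RNA per cell cannot be told apart. *Aldh1a1* held medians of 1247, 1298, and 1360 CPM at 2, 6, and 12 months, with a log2 difference between 12 and 2 months of 0.15 ± 0.08 (adjusted p = 0.248) that was nevertheless positive at 6 of 6 times. Its lowest library was that of ZT5 at 6 months at 659 CPM, the library with the most *Saa1* (22661 CPM). *Aldh1a7* held medians of 226, 249, and 272 CPM, with a log2 difference of 0.29 ± 0.12 (adjusted p = 0.123).

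Between 6 and 2 months 0 of the 8 genes passed in edgeR, against 11.1% of all genes, and 5 of the 8 had a p under 0.05 before adjustment, against 25.7% of all genes. The nearest were *Lrat* (log2 difference -0.35 ± 0.12, adjusted p = 0.0798) and *Hsd17b6* (-0.64 ± 0.23, adjusted p = 0.0983). In DESeq2 0 passed as well. Between 12 and 6 months 3 passed, *Rdh16*, *Rdh16f2*, and *Rdh11*, all higher at 12 months, against 9.86% of all genes. Beside these comparisons stand marker levels of the 6-month libraries. The summed level of 5 cholangiocyte markers was 37.5 to 145 CPM at 6 months, against 29.7 to 46.6 at 2 months and 16.3 to 28.3 at 12 months. That of 6 hepatocyte markers was 46470 to 97459, 82050 to 94579, and 86068 to 120382 CPM in the same order. Most of that sum was *Alb*, which alone held 38019 to 86947, 69760 to 83219, and 74668 to 108131 CPM. The medians of *Cps1*, *Ass1*, *Tat*, and *Apoa2* were lowest at 6 months. That of *Hnf4a* was highest at 6 months, at 486 CPM against 405 at 2 and 424 at 12 months. The part of these and of *Saa1* in the comparisons with 6 months was not tested.

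The daily course of the 8 genes was tested within each age by a fit of a 24-h cosine and sine in edgeR. At 2 months 0 of the 8 genes passed, against 4.58% of all genes, and at 12 months 0 passed, against 3.30%, with 1 and 2 genes at an unadjusted p under 0.05, against 19.0% and 16.8% of all genes, and 0 passing in DESeq2 at either age. At 6 months 1 passed, against 4.38%. That gene was *Cyp26a1*, with a fitted log2 amplitude (mean to peak) of 1.04, a peak at ZT 22.8, and an adjusted p of 0.0244. At 2 months *Rdh11* came nearest (log2 amplitude 0.82, peak at ZT 23.9, adjusted p = 0.0607), and its highest library there was 2.89 times its lowest. An exact permutation test over all orders of the 6 times, two-sided, reaches no p below 0.0333 with 6 libraries. Only *Rdh11* at 6 months reached that value, among 24 tests of this kind and with an adjusted p over all genes of 0.408. The same smallest value was reached by 8.66%, 8.18%, and 6.43% of all genes at 2, 6, and 12 months.

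The change of daily course between ages was tested by terms that let the cosine and sine differ with age. Between 6 and 2 months 0 of the 8 genes passed in edgeR, against 0.213% of all genes, and 3 had a p under 0.05 before adjustment, against 11.2% of all genes. *Hsd17b6* came nearest (unadjusted p = 9.08e-04, adjusted p = 0.108), with its highest library at ZT9 (197 CPM) at 2 months and at ZT17 (161 CPM) at 6 months. It was followed by *Rdh16* (unadjusted p = 0.00264, adjusted p = 0.150), which was highest at ZT9 and at ZT17 in the same order. In DESeq2 2 of the 8 passed, as did 273 of all genes against 31 in edgeR. Between 12 and 6 months 0 of the 8 passed, against 0.0204% of all genes, with 2 at an unadjusted p under 0.05 (*Cyp26a1* and *Rdh16*), against 9.29% of all genes, and 0 passing in DESeq2. Between 12 and 2 months 0 of the 8 passed in edgeR or DESeq2, 0 had an unadjusted p under 0.05, and of all genes 0 passed in edgeR (0%), while 649 had an unadjusted p under 0.05 and 17 passed in DESeq2.

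For each of the 8 genes, the genes with the most similar order of levels over the 18 time-course libraries were listed by Spearman correlation, without a test. For *Rdh16* they included *Haus7* (0.97) and *Ces1f* (0.94). For *Rdh16f2* they were *Lpcat3* (0.88), *Ces1e* (0.86), and *Aard* (0.86), and for *Rdh11* *Elovl5* (0.94), *Camk1d* (0.92), and *Gngt1* (0.92). *Hsd17b6* was closest to *Ndfip1* (0.91), *Lrat* to *Cops7a* (0.87), *Cyp26a1* to *Pcdhb14* (0.84), *Aldh1a1* to *Cacybp* (0.84), and *Aldh1a7* to *Zfp987* (0.82). Among the 8 genes themselves, *Aldh1a1* and *Aldh1a7*, whose promoter windows share 65 bases, correlated at 0.33, less than *Rdh11* and *Aldh1a7* at 0.61.

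The genotype experiment compared the same ages in other mice, from edgeR with terms for genotype and for H or L. H and L are not the same clock times at every age, so these terms do not remove collection time. Between 12 and 2 months 4 of the 8 genes passed, 2 higher and 2 lower, against 10.7% of all genes. *Rdh16* was higher again, at 90.8 (WT H), 69.9 (WT L), 102 (KO H), and 131 (KO L) CPM at 2 months and at 192, 129, 191, and 157 CPM at 12 months. The highest 2-month library, KO L, was above the lowest 12-month library, WT L. In the time course the 12-month library of ZT5, the H time at that age, was also the highest for *Rdh16*, at 139 CPM, and that of ZT21 held 94.7. The part of collection time was not tested. The log2 fold change of *Rdh16* was 0.81 ± 0.22 (edgeR adjusted p = 0.0344). This call was lost in WT libraries alone (adjusted p = 0.115) and without the KO H library of 12 months (0.0940), the KO H library of 2 months (0.117), the WT H library of 12 months (0.124), the WT H library of 2 months (0.0800), or the WT L library of 2 months (0.0942), with adjusted p from 0.00264 to 0.124 over its 16 alternatives.

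*Aldh1a7* stood at 264, 283, 277, and 252 CPM at 2 months and at 441, 400, 432, and 388 CPM at 12 months in the same order of libraries, without overlap. Its log2 fold change was 0.65 ± 0.14 (edgeR adjusted p = 0.0150). The call was lost in WT libraries alone (0.297) and without the KO H library of 12 months (0.0515), the KO H library of 2 months (0.0527), or the WT H library of 12 months (0.0588), with adjusted p from 0.000437 to 0.297 over its alternatives. In the time course the 12-month libraries of the same ZT5 and ZT21 were also its highest at that age, at 348 and 410 CPM, against 198 to 279 at the other times. The 2-month library of ZT13 was its lowest at that age, at 200 CPM, and that of ZT17 held 224. The part of collection time was not tested.

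*Hsd17b6* fell furthest, from 140, 166, 106, and 76.8 CPM at 2 months to 35.0, 54.0, 34.6, and 40.3 CPM at 12 months. All 4 libraries of 12 months were below all 4 of 2 months. The log2 fold change was -1.49 ± 0.23 (edgeR adjusted p = 0.00284), and the adjusted p stayed under 0.05 in all 16 alternatives. Libraries without overlap between these ages, as in *Hsd17b6* and *Aldh1a7*, were seen in 17.7% of all genes. In the time course the 12-month libraries of the same ZT5 and ZT21 were also its lowest at that age, at 58.1 and 56.4 CPM. At the other 4 times it stood at 133 to 213 CPM. The 2-month libraries of ZT13 and ZT17 held 111 and 135 CPM. The part of collection time was not tested, and the 16 alternatives do not remove it.

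*Rdh16f2* was lower at 12 than at 2 months in the genotype experiment, while it was higher at 12 months in the time course. In WT it went from 114 (H) and 117 (L) CPM at 2 months to 78.2 and 92.4 CPM at 12 months, and in KO from 68.8 and 66.7 to 40.4 and 33.5 CPM. The 12-month libraries were thus lower within each genotype. The log2 fold change was -0.64 ± 0.13 (edgeR adjusted p = 0.0110), and in WT libraries alone -0.42 (adjusted p = 0.507, from 0.000195 to 0.507 over the 16 alternatives). At the same age and ZT the wild-type libraries of the time course stood at 98.2 and 92.5 CPM at 2 months and at 138 and 114 CPM at 12 months. These tables were normalised separately, and the difference between the experiments was not tested. The mice of the genotype experiment came from backcrossed lines, unlike those of the time course, and the part of strain background was not tested.

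**Figure D2:**
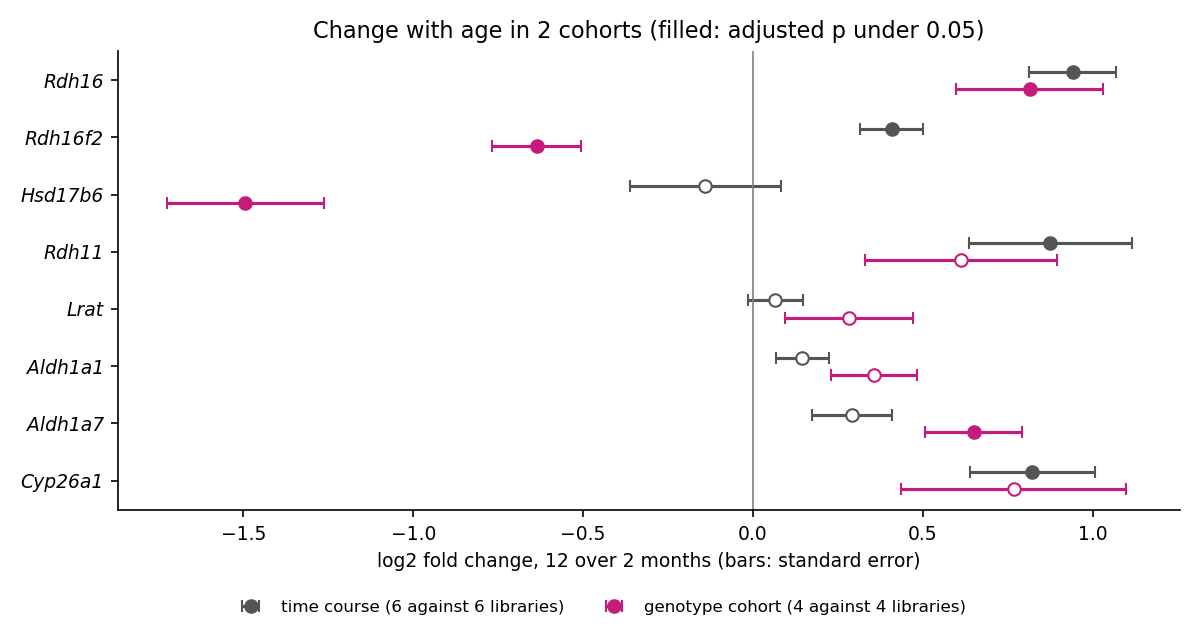
Log2 fold change from 2 to 12 months (horizontal axis) of each gene in the time course (grey) and in the genotype experiment (pink), with standard errors as bars and filled points for an adjusted p under 0.05. *Rdh16* lies to the right of 0 in both, and *Rdh16f2* lies at 0.41 in the time course and at -0.64 in the genotype experiment.

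The other 4 genes did not pass between 12 and 2 months in the genotype experiment. The log2 difference of *Cyp26a1* was 0.77 ± 0.33 (edgeR adjusted p = 0.175), that of *Rdh11* 0.61 ± 0.28 (0.204), that of *Aldh1a1* 0.36 ± 0.13 (0.102), and that of *Lrat* 0.28 ± 0.19 (0.394). Between 6 and 2 months 0 of the 8 passed in edgeR, against 2.38% of all genes, with 2 at a p under 0.05 before adjustment, against 16.9% of all genes, and 0 passing in DESeq2. Between 12 and 6 months 0 passed, against 0.0196% of all genes, with 6 at a p under 0.05 before adjustment, against 11.8% of all genes. In DESeq2 1, *Hsd17b6*, passed, as did 388 of all genes.

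Values of the libraries labelled WT and KO were in view when these 8 genes were chosen, so they are given as a description. *Rdh16f2* was at 114, 117, 122, 103, 78.2, and 92.4 CPM in WT (H and L at 2, 6, and 12 months in turn) and at 68.8, 66.7, 41.3, 47.9, 40.4, and 33.5 CPM in KO. Every KO library was below every WT library, and KO was lower in 6 of 6 pairs. The mean was 104 ± 16.6 CPM in WT and 49.8 ± 14.7 in KO (SD, n = 6 each), and the fitted log2 difference was -1.11 ± 0.11 (SE). In the 3 pairs with lower *Egr1* in KO it was -1.38. The pairs without lower *Egr1* differed in the same direction, at -0.72 (2 months H), -0.80 (2 months L), and -0.94 (12 months H), from the CPM of each pair. The 6-month pairs all had lower *Egr1* in KO and the 2-month pairs did not, so *Egr1* and age cannot be told apart in this split. Of all genes 0.880% did not overlap between genotypes and 1.39% passed an adjusted p of 0.05, *Rdh16f2* among them as 1 of the 8 genes. Since *Rdh16f2* was chosen with these values in view, its call and these shares are no support for the difference.

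**Figure D3:**
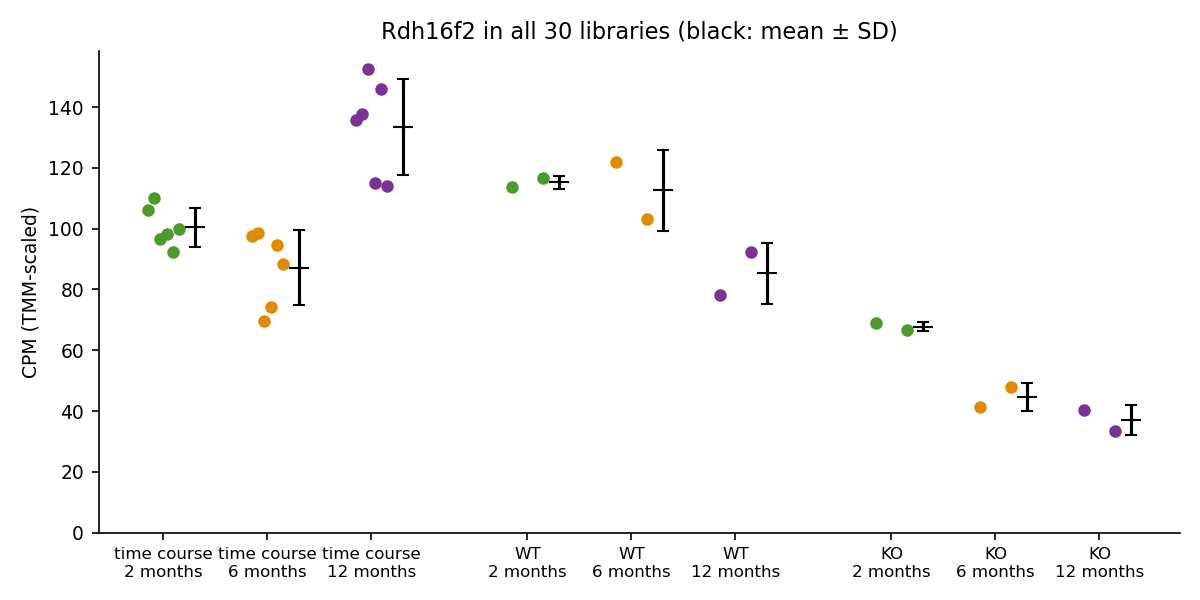
CPM (TMM-scaled, vertical axis) of *Rdh16f2* in each of the 30 libraries by experiment, genotype, and age, with mean and SD in black. The KO libraries sit between 33.5 and 68.8 CPM, all below the WT libraries at 78.2 to 122 CPM, and the 12-month libraries are the highest in the time course and the lowest within WT and within KO on average.

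Some other genes of hepatocytes moved with genotype in these libraries. *Alb* was at 26339 to 36312 CPM in KO and 52419 to 66783 CPM in WT, lower in KO in 6 of 6 pairs. The other hepatocyte markers overlapped between genotypes. Medians were higher in KO than in WT for *Ass1* (2815 and 2364 CPM) and *Tat* (1928 and 1547). They were lower in KO for *Cps1* (2760 and 3088), *Hnf4a* (578 and 605), and *Apoa2* (8722 and 9989). *Glul*, a pericentral marker, was at 989 to 1292 CPM in KO and 703 to 972 CPM in WT, higher in 6 of 6 pairs. The sum of 6 pericentral markers was 6114 to 10654 CPM in KO and 5690 to 7460 in WT, and that of 5 periportal markers 1218 to 1893 in KO and 1530 to 2306 in WT. The part of these in the level of *Rdh16f2* was not tested.

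*Hsd17b6* was also lower in KO in 6 of 6 pairs, with 140, 166, 119, 113, 35.0, and 54.0 CPM in WT and 106, 76.8, 60.4, 37.9, 34.6, and 40.3 CPM in KO. The groups overlapped, the 12-month H pair was nearly equal, and the fitted log2 difference was -0.76 ± 0.17. *Aldh1a1* was at 1487 to 2413 CPM (median 1681) in WT and 1760 to 2320 (median 2127) in KO, higher in KO in 5 of 6 pairs, with a log2 difference of 0.26. *Rdh16* (0.34), *Cyp26a1* (0.29), *Rdh11* (-0.34), *Lrat* (0.07), and *Aldh1a7* (0.05) had pairs in both directions. For *Rdh11* the 12-month L pair stood apart, at 78.2 CPM in WT and 28.9 in KO. The genotype difference did not pass a test of change with age in any of the 8 genes in edgeR (adjusted p = 1 for each, 1 with an unadjusted p under 0.05, against 3.15% of all genes, and 0 passing in DESeq2), where 0.0130% of all genes passed.

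**Figure D4:**
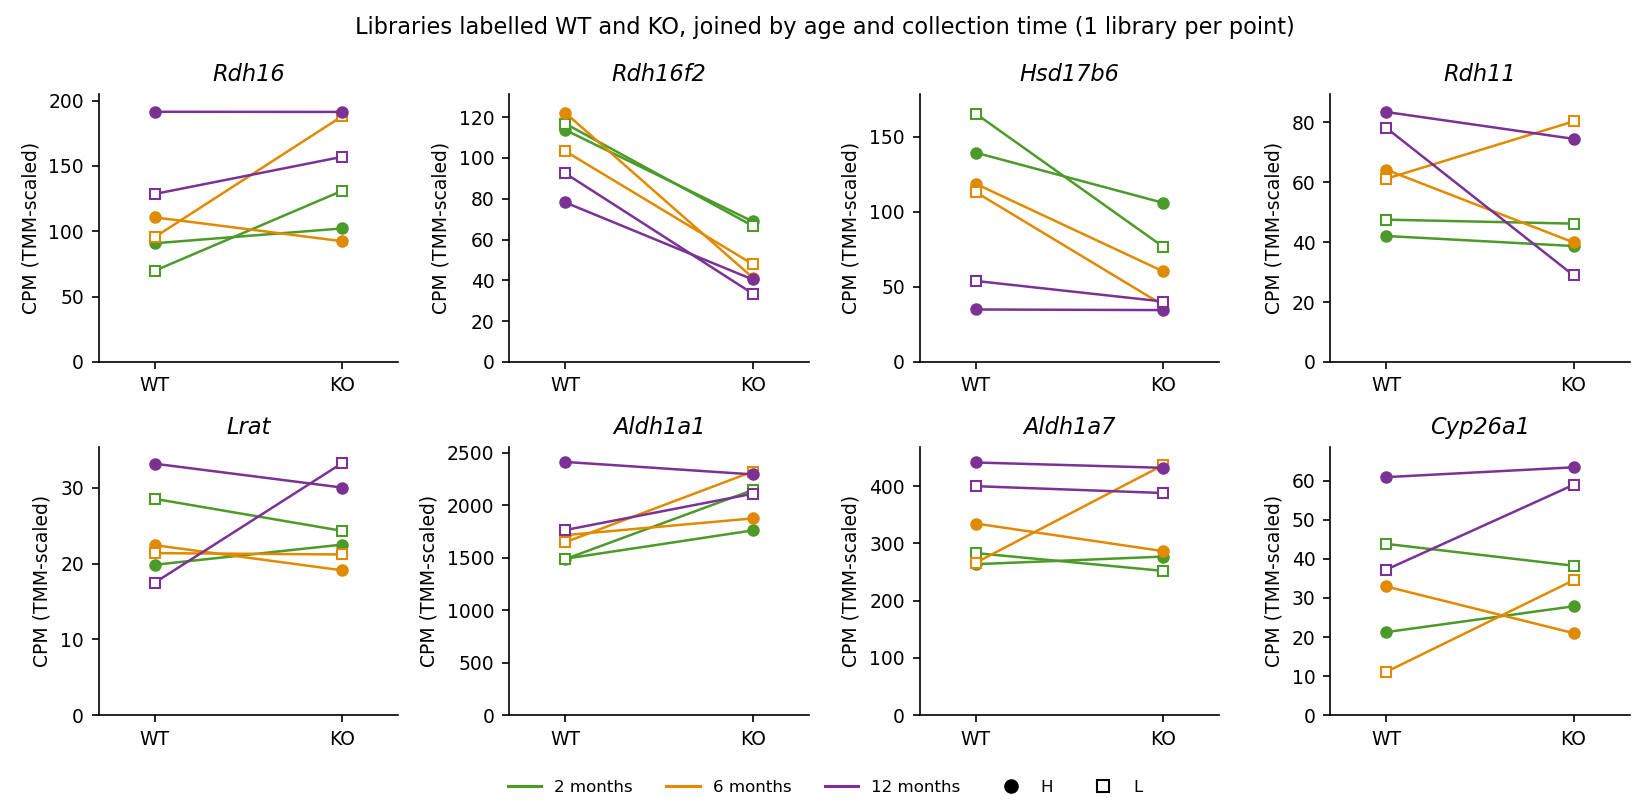
CPM (TMM-scaled, vertical axis) of each gene in the libraries labelled WT and KO, with a line joining the WT and KO library of the same age and collection time (filled circles H, open squares L). All 6 lines of *Rdh16f2* fall from WT to KO, and those of *Lrat*, *Aldh1a7*, and *Cyp26a1* run in both directions.

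Around these 8 genes, 47 other genes of retinoid transport, oxidation, and signalling were listed, of which 38 were tested between 12 and 2 months in the time course. Of them 9 passed, 5 higher and 4 lower at 12 months, against 14.0% of all genes, and the median log2 fold change was -0.0050. Among genes of transport, storage, and cleavage 4 of 11 passed. *Retsat*, the retinol saturase, rose from 111 ± 8.76 to 180 ± 32.0 CPM (log2 fold change 0.69 ± 0.11, edgeR adjusted p = 0.00118). *Ttr*, the carrier of retinol-binding protein in plasma, rose by 0.39 ± 0.09 on the log2 scale (adjusted p = 0.0113), and *Pnpla3*, a lipase that also cleaves retinyl esters, by 1.92 ± 0.49 (adjusted p = 0.0208) at a level of at most 5.28 CPM. *Stra6l*, a membrane receptor for retinol-binding protein in liver, fell (log2 fold change -0.54, adjusted p = 0.00157).

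Among the other retinol and retinal oxidoreductases 4 of 13 passed. *Adh1*, an alcohol dehydrogenase that also oxidizes retinol, rose by 0.40 ± 0.09 on the log2 scale (edgeR adjusted p = 0.00960) and *Dhrs4*, a retinal reductase, by 0.34 ± 0.08 (0.0130). *Rdh5*, an 11-cis retinol dehydrogenase, fell by 0.59 on the log2 scale (0.00722), and *Sdr16c5* fell by 3.48 (0.0167) at a level of at most 0.814 CPM. *Rdh7*, which lies between *Rdh16f2* and *Hsd17b6*, had a log2 difference of -0.14 ± 0.08 (adjusted p = 0.318). Of 7 genes of retinoic acid synthesis and clearance 1 passed, *Aldh1b1*, an aldehyde dehydrogenase, which fell by 0.79 on the log2 scale (0.00194). Of 7 genes of binding proteins and receptors 0 passed in edgeR, with 1 gene, *Fabp5*, at a p under 0.05 before adjustment.

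Between 6 and 2 months 8 of the 38 passed, 1 higher and 7 lower, against 11.1% of all genes. The retinoic acid receptor gene *Rarg* rose by 0.71 ± 0.14 on the log2 scale (edgeR adjusted p = 0.0111). *Aldh1b1* (-0.79), *Bco2* (-0.67), *Rxrg* (-0.61), *Rdh7* (-0.38), *Retsat* (-0.36), *Dhrs3* (-0.31), and *Sdr16c5* (-2.90) fell. The part of the high *Saa1* of the 6-month libraries was not tested here either. Between 12 and 6 months 7 of 36 passed, against 9.86% of all genes, with *Pnpla3* (3.38), *Retsat* (1.04), *Adh1* (0.65), *Rxrg* (0.64), and *Ttr* (0.59) higher at 12 months and *Rarg* (-0.45) and *Stra6l* (-0.42) lower. The daily course passed the cosine test in 5, 7, and 3 of the 38 genes at 2, 6, and 12 months, against 4.58%, 4.38%, and 3.30% of all genes. *Stra6l* passed at all 3 ages, with log2 amplitudes of 0.83, 0.83, and 0.85 and peaks at ZT 1.59, 2.74, and 2.64, and so did *Dhrs3*, a retinal reductase, with log2 amplitudes of 0.60, 0.43, and 0.70.

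**Figure D5:**
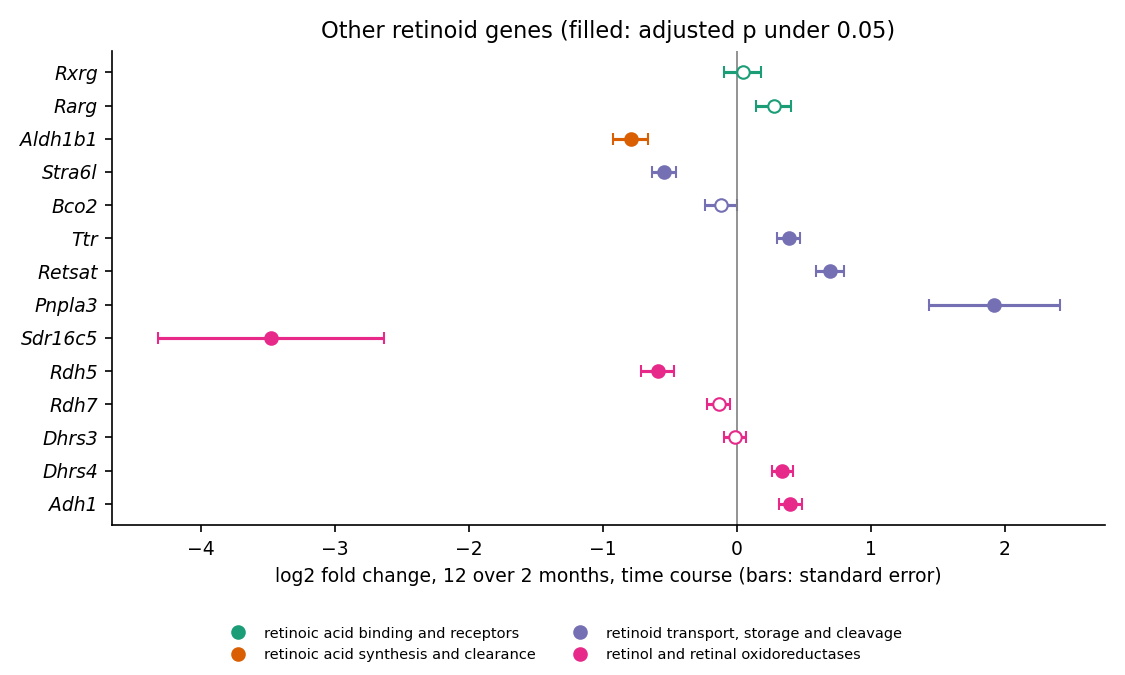
Log2 fold change from 2 to 12 months in the time course (horizontal axis) of the 14 named other retinoid genes, coloured by list, with standard errors as bars and filled points for an adjusted p under 0.05. *Sdr16c5*, with at most 0.814 CPM, lies furthest to the left at -3.48 and *Pnpla3* furthest to the right at 1.92.

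In the genotype experiment 10 of 37 of these genes passed between 12 and 2 months, 5 higher and 5 lower, against 10.7% of all genes. *Stra6l* (0.64) and *Rdh5* (-0.56) passed there too, *Rdh5* in the direction of the time course and *Stra6l* in the opposite one. *Sdr16c5* was not tested there, and the others of the 9 called in the time course did not pass, among them *Retsat* (0.23, edgeR adjusted p = 0.506), *Ttr* (0.06), *Dhrs4* (-0.015), and *Adh1* (-0.18). Between 6 and 2 months 3 of the 37 passed there, all higher at 6 months, against 2.38% of all genes. *Bco2* (0.82, edgeR adjusted p = 0.0131) was among them, opposite to the time course. *Dhrs3* (0.51), *Retsat* (0.21), and *Rarg* (-0.42) were also opposite but did not pass. *Aldh1b1* (-0.14), *Rxrg* (-0.075), and *Rdh7* (-0.073) kept their direction and did not pass. *Retsat* was the only 1 of the 37 to pass between genotypes (1.39% of all genes did), lower in KO in 6 of 6 pairs, at 246 to 408 CPM in WT and 171 to 264 CPM in KO (log2 difference -0.54 ± 0.07, edgeR adjusted p = 0.00906). The list was chosen with earlier results of these data known, so this call is a description and no support for the difference.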

How the data were processed

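The authors trimmed reads with fastp, aligned them to mm10 with HISAT2, and counted them per gene with featureCounts, and deposited raw counts without normalization, per the labels and the study's methods. Versions and the strand setting are not given in the sources used here. The study's legends name several animals per group, while each condition has 1 library here, and whether a library pooled them is not stated. The 2 count tables (18 and 12 libraries) were used whole, and 0 columns of values were left out. Each combination of age and time, or of age, genotype, and time, had 1 library, so p-values measure the spread between libraries.

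The 8 genes and the other lists were chosen with earlier results of these data known. R 4.3.3 with edgeR 4.0.16 gave TMM-scaled CPM and all fits, on genes passing filterByExpr, with Benjamini-Hochberg adjustment over all genes tested and a threshold of 0.05. Ages were compared in the time course with ZT as a block, and genotypes with the 6 pairs of equal age and time as blocks. Python 3.11.15 with pandas 2.3.3, numpy 2.4.6, and scipy 1.17.1 gave the tables. FPKM divided CPM by summed GENCODE M21 exon length. The exact rhythm test left out genes averaging under 1 CPM. Correlations used log2(CPM + 0.5). The 8 genes were all named, as were those of the 47 other retinoid genes that passed between ages in the time course and the 3 genes most like each of the 8 (in part named here). The fits were tested on simulated data. Alternatives were RLE size factors, no filter, DESeq2 1.42.0, other terms, and leaving out each time, pair, or library.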

Additional observations from a re-analysis of the deposited data

Results flagged for a closer look

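*Aldh1a1* in the WT libraries was looked at because 1 library stood far from the other 5. The WT H library of 12 months held 2413 CPM, and its gap to the next was 0.70 of the range of the group, above Dixon's critical value for 6 libraries. This was the only such library in 40 groups of 6 looked at, and chance alone passes this value in about 1 in 20 groups. The 6 WT libraries are not replicates, since they differ in age and collection time. The KO library of the same age and time held 2294 CPM.

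*Rdh16f2* differed in direction between the experiments. From 2 to 12 months its log2 fold change was -0.64 in the genotype experiment, lower in WT and in KO, and 0.41 in the time course, and from 6 to 12 months it was -0.32 against 0.62. The difference between the experiments was not tested, since the tables were normalised separately and share no library. The part of strain background, with backcrossed lines only in the genotype experiment, was not tested either.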

How the results depend on the processing

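Of 736 log2 fold changes of the 8 genes under alternatives, 693 kept their direction and their side of the threshold, 16 lost the call, 17 gained it, and 10 reversed. Without a filter on low counts, 4 of the 8 genes passed between 6 and 2 months (2147 of all genes), 6 between 12 and 6 months (2184), 1 in the cosine test at 2 months (765), 1 in the change of daily course between 6 and 2 months (164), and 2 between genotypes (636). In DESeq2 2 passed between genotypes (408 of all genes), 1 between 12 and 6 months in the genotype experiment (388), and 2 in the change of daily course between 6 and 2 months (273). In WT libraries alone 1 passed between 12 and 2 months. The cause was not tested.

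With 1 time, pair, or library left out, the number of the 8 genes passing ran from 0 to 1 between 6 and 2 months in the time course (*Hsd17b6* at -0.83 without ZT17), and in the genotype experiment from 2 to 5 between 12 and 2 months and from 0 to 2 between 12 and 6 months, where *Hsd17b6* (-1.11) and *Aldh1a7* (0.54) passed without the KO L library of 6 months. Reversals came only there, in differences that never passed: *Aldh1a1* ran from -0.058 to 0.18 between 6 and 2 months (also -0.019 and -0.033) and from -0.045 to 0.18 between 12 and 6 months, *Aldh1a7* from -0.029 to 0.30 between 12 and 6 months, and *Hsd17b6* from -0.32 to 0.11 between 12 and 2 months. Between genotypes *Lrat* ran from -0.090 to 0.14 and *Aldh1a7* from -0.087 to 0.11, and between 12 and 6 months in the genotype experiment *Rdh11* ran from -0.084 to 0.43 (also -0.068).

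The number of all genes passing moved more. It was 1611 (875 to 2147 over the alternatives) between 6 and 2 months, 2042 (955 to 2582) between 12 and 2 months, and 1448 (617 to 2229) between 12 and 6 months in the time course. It was 365 (0 to 775), 1645 (34 to 1950), and 3 (1 to 388) in the genotype experiment, 214 (38 to 636) between genotypes, 2 (2 to 100) for genotype by age, and 31 (32 to 273), 0 (0 to 17), and 3 (3 to 176) for the change of daily course between 6 and 2, 12 and 2, and 12 and 6 months. ZT was a block in the age fits of the time course and the pair in the genotype fit, and no labels give replicate numbers shared between groups. With 1 library for each condition, differences within 1 age and time cannot be tested.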
